A study of Mus musculus with 2 samples.

Results

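The variable gene segments of the T cell receptor are the exons that encode most of the antigen-facing part of its alpha and beta chains. Members were all gene symbols of the deposited matrices that begin with Trav or Trbv followed by a digit and that held at least 10 unique molecular identifiers (UMIs, counted RNA molecules) over both libraries. Of 163 such symbols, 82 met the limit, 61 of 128 alpha segments and 21 of 35 beta segments, out of 32285 genes in all. Nearest above the limit lay Trav9n-1 and Trav9d-1 with 10 UMIs each and Trbv12-1 and Trav13-4-dv7 with 13 each, and nearest below it Trav10d with 9 and Trav4d-2 and Trav8-1 with 8 each.

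CD4+ TCRb+ T cells had been sorted from the stromal vascular fraction of mouse visceral adipose tissue, and each group gave 1 droplet 3′ library: wild-type animals (WT) and animals without CD27 (CD27-/-). CD27 is a costimulatory receptor of lymphocytes whose ligand is CD70. Per the labels, tissue of 10 mice was pooled, the strain is C57BL/6 in both groups, and no age or further treatment is given for either. The library contrast is therefore 1 pool against 1 pool: there is no replicate error and no test, intervals are exact 95% intervals that cover counting error only, and cells that descend from 1 clone share a receptor and are not independent. Which mouse a cell came from cannot be told, as the antibody feature in the files holds 0 UMIs in both libraries.

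T cells make their receptor genes by joining segments in the thymus. An alpha chain takes 1 variable and 1 joining segment, a beta chain takes a diversity segment as well, and a clone keeps its choice for life. The mouse alpha locus carries many near copies, named by the letters d and n after the family number, which arose by duplication. In visceral fat, regulatory T cells that carry the interleukin-33 receptor are known for a restricted, clonally expanded receptor repertoire. Because 3′ libraries capture the end of the messenger RNA with the constant region, a variable segment is seen in few cells.

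After quality filters 6202 WT and 6788 CD27-/- T cells remained, with a median of 1930 and 2200 UMIs per cell and 15824202 and 19784355 UMIs in all. The T cell label held: at least 1 UMI of Trbc2, a beta constant region, was present in 84.7% of WT and 84.6% of CD27-/- T cells, while Cd8a held 8 and 5 UMIs in all and Cd8b1 110 and 165. Cd4, the gene of a marker used in the sort, was seen in only 25.28% of WT and 30.85% of CD27-/- T cells. Cd27 held 2072 UMIs in WT and 15 in CD27-/-, as the labels say of these mice. Both libraries share 12 cell barcodes. Over the 9754 genes with at least 100 UMIs, the median log2 ratio of the depth-scaled level (CPM, a gene's UMIs scaled to equal library totals), CD27-/- over WT, was 0.17. The CPM ratios between the libraries below are to be read against it. It does not apply to the usage ratios defined further on, or to ratios within 1 library.

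Near copies limit what can be assigned, so the stretches that separate the most affected symbols are shown first. Each is 120 bases of the second exon, which encodes the variable domain, on the plus strand of mm10, from the GENCODE vM21 transcripts, with positions that differ within a set in capitals. Trav16, Trav16n and Trav16d-dv11 are shown because they moved in different directions between the libraries while they differ at 6 of 301 compared positions of the exon. Their stretches lie at chr14:53743557-53743676, chr14:53351473-53351592 and chr14:53047673-53047792.
Trav16: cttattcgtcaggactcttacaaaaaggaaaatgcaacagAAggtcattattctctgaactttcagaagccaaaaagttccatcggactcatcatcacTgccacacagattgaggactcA
Trav16n: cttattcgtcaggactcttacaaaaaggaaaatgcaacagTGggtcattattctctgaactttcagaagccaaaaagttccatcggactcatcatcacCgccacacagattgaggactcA
Trav16d-dv11: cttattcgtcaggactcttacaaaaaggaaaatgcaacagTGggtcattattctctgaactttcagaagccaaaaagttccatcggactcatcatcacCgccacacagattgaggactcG
Trav5-4 is shown beside its nearest copy because it was the most used alpha segment of CD27-/- and had the highest CPM ratio among the segments with at least 100 UMIs. Trav5n-4, which is identical to Trav5d-4 over its whole annotated transcript, differs from it at 6 of 291 compared positions. The stretches lie at chr14:53704297-53704416 and chr14:53313205-53313324.
Trav5-4: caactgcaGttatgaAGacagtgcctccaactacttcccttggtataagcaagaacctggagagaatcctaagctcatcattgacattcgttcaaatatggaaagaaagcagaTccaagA
Trav5n-4: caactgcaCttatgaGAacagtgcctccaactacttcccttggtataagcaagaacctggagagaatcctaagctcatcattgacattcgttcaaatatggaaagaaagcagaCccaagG
Trav7-3 and Trav7d-3 are shown because both were higher in CD27-/- and differ at only 2 of 288 compared positions, at chr14:53443665-53443784 and chr14:52744666-52744785.
Trav7-3: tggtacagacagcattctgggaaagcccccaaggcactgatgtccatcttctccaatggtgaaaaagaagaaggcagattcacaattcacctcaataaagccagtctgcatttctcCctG
Trav7d-3: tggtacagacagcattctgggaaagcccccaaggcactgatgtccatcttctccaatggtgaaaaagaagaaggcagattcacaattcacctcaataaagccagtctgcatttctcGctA
Trbv13-1, Trbv13-2 and Trbv13-3 are shown as the contrast: members of 1 beta family that differ at 49 of 294 compared positions. They lie at chr6:41116330-41116449, chr6:41121694-41121813 and chr6:41130447-41130566.
Trbv13-1: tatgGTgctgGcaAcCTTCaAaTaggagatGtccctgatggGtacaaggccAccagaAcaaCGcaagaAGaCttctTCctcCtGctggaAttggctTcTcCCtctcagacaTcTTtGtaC
Trbv13-2: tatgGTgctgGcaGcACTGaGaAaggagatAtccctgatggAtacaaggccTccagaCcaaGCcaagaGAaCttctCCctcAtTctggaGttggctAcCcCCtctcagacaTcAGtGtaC
Trbv13-3: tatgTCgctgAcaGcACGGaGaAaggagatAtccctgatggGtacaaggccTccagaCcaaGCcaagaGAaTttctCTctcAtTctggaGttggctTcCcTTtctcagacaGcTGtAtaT

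How far a symbol can be counted at all followed the sequence. For each segment, the share of 90-base windows of its transcript that occur in no other annotated gene was computed; no source used here gives the authors' read length. All 39 alpha symbols without such a window held 0 UMIs, as did 3 of the 6 with under 10%, 1 of 16 with 10% to 50%, 2 of 35 with 50% to 90% and 6 of 32 with 90% or more. Trav5n-4 and Trav5d-4 are among those without a unique window. Trav11 and Trav11d are identical over 342 bases, and they held 1 UMI in each library and 0 UMIs, respectively. A value of 0 for such a symbol therefore says nothing of its use. Of the 22 beta genes that are not pseudogenes, 20 were members, and 32 of 35 beta symbols had 90% or more unique windows. The 13 beta pseudogenes gave 1 member, Trbv24, and the 20 alpha pseudogenes gave 2, Trav8-2 and Trav9n-1.

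**Figure D1:**
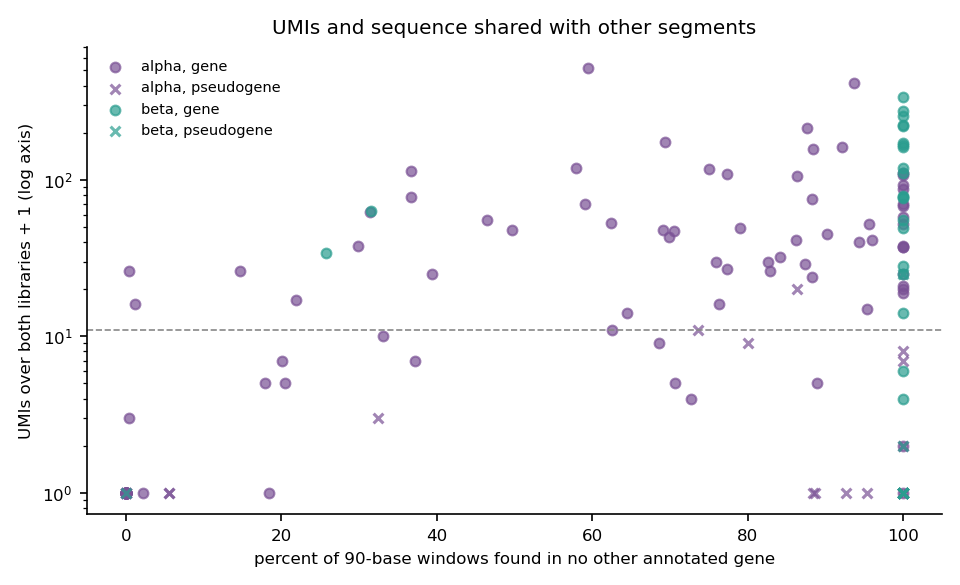
UMIs over both libraries plus 1 (log axis) against the percent of 90-base windows of a segment found in no other annotated gene, for all 163 symbols (circles, genes; crosses, pseudogenes; dashed line, the limit of 10 UMIs). The 39 alpha symbols without a unique window all sit at 0 UMIs, and most beta genes sit at the right edge.

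Alpha segments were detected in more CD27-/- than WT T cells and beta segments were not. An alpha member was seen in 1181 WT T cells, or 19.0% (18.1 to 20.04), and in 1752 CD27-/- T cells, or 25.8% (24.8 to 26.9). A beta member was seen in 16.7% (15.8 to 17.7) and 16.2% (15.4 to 17.1). After each cell was thinned to 1300 UMIs, which left out 536 WT and 54 CD27-/- cells, the alpha shares were 11.3% (10.5 to 12.2) and 14.9% (14.1 to 15.8), so the gap was present at equal depth. The beta shares at that depth were 9.25% (8.51 to 10.0) and 7.97% (7.34 to 8.65). Per 100 UMIs of Trac, the alpha constant region, alpha members held 13.5 UMIs in WT and 16.6 in CD27-/-, whereas Trac itself stood at 771 and 780 CPM. Per 100 UMIs of Trbc1 and Trbc2, beta members held 4.05 and 3.91. In cells of the non-T clusters, 136 in WT and 65 in CD27-/- with median depths of 4320 and 4055 UMIs, an alpha member was seen in 18.4% and 21.5%. Thinned to 1300 UMIs those shares were 1.60% (2 of 125 cells) and 1.56% (1 of 64 cells), well below the T cells at the same depth. How much free RNA contributed to single UMIs in T cells was not tested.

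Among genes that work with the segments in the receptor, the alpha and beta constant regions and the CD3 chains were near level. Of 15 genes listed, 12 were found under those names and 8 had at least 100 UMIs. Of these 8, 0 were 1.5-fold higher and 1 lower in CD27-/-, against 7.02% and 2.86% of all genes. The lower one was Trdc, the delta constant region, at 9.29 and 3.94 CPM. Outside the list, the gamma constant regions stood at 6.89 and 10.6 CPM for Tcrg-C1, 6.89 and 5.21 for Tcrg-C2, and 3.03 and 1.57 for Tcrg-C4. Tcrg-C1, with a ratio of 1.53 (1.21 to 1.95), met the rule for higher. Trac, Trbc1, Trbc2, Cd3d, Cd3e, Cd3g and Cd247, which form or signal for the receptor, had ratios between 0.837 and 1.05. Rag1 and Rag2, the recombinase genes, held 0 UMIs in both libraries, and Dntt, which adds bases at the joints, held 16 and 2.

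Usage of a segment is given from here as the share of T cells with a UMI of it among T cells with a UMI of any member of its chain, 1181 WT and 1752 CD27-/- cells for alpha and 1036 and 1101 for beta. Beta usage differed in fewer segments than alpha usage. The usage ratio had an interval without 1 in 5 of 21 beta members, 2 higher and 3 lower in CD27-/-. For alpha it did in 33 of 61 members, 15 higher and 18 lower. The share of all genes with such an interval was not computed, so these counts have no background. The most used beta segments in WT were Trbv3 (11.1%), Trbv2 (10.4%), Trbv19 (10.4%), Trbv20 (9.36%), Trbv1 (9.07%), Trbv12-2 (7.05%), Trbv15 (7.05%) and Trbv13-2 (6.27%). In CD27-/- the values were 11.2% for Trbv3, 17.0% for Trbv2, 10.7% for Trbv19, 7.99% for Trbv20, 8.90% for Trbv1, 7.99% for Trbv12-2, 5.90% for Trbv15 and 7.45% for Trbv13-2. Across the 21 beta members the usages of both libraries had a Pearson r of 0.91, given as a description, since the points share their libraries.

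Trbv2 was the beta segment with at least 100 UMIs that stood furthest above WT. It had 108 of 1036 WT cells, 10.4% (8.63 to 12.5), and 187 of 1101 CD27-/- cells, 17.0% (14.8 to 19.3), a usage ratio of 1.63 (1.28 to 2.08). On the other side lay Trbv26 among segments with at least 100 UMIs, at 5.89% (4.53 to 7.50) and 3.91% (2.84 to 5.22). Trbv29, with fewer UMIs and singled out after its values were seen, went from 33 cells, 3.18% (2.20 to 4.44), to 14 cells, 1.27% (0.697 to 2.12). Singled out likewise, Trbv17 went from 3.18% to 1.63%, a ratio of 0.513 (0.272 to 0.938), and Trbv13-3 from 2.41% to 4.27%, a ratio of 1.77 (1.07 to 3.00).

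**Figure D2:**
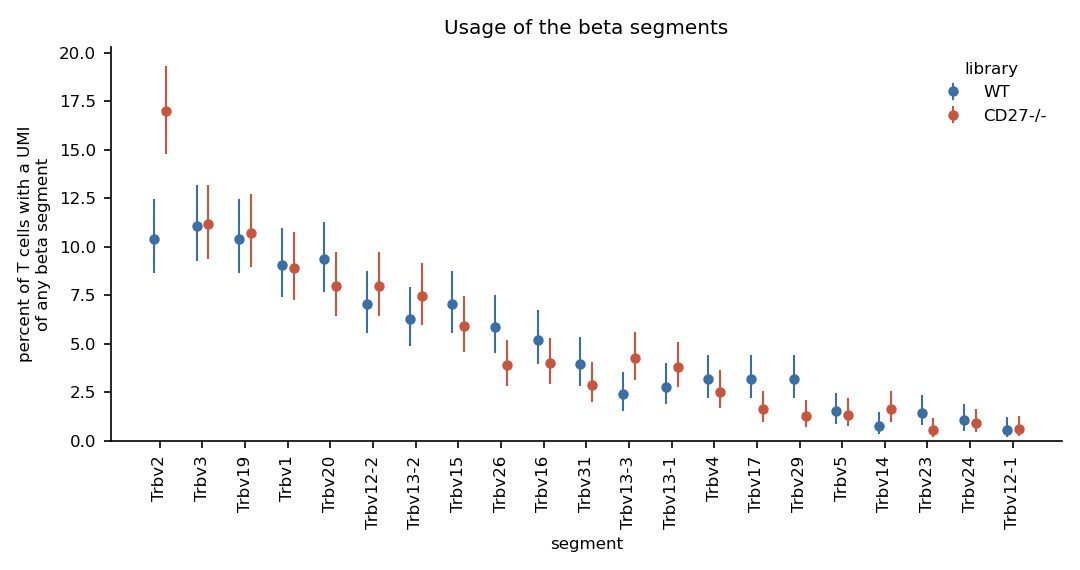
Usage of the 21 beta segments in percent of T cells with a UMI of any beta segment, for the WT (blue) and CD27-/- (red) library; bars are exact 95% intervals for counting error. Trbv2 at 10.4% and 17.0% is the segment whose intervals lie furthest apart, and most pairs overlap.

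Alpha usage differed far more. Trav16n was first in WT, with 179 of 1181 cells, 15.2% (13.2 to 17.3), and second in CD27-/-, with 170 of 1752 cells, 9.70% (8.36 to 11.2). It was followed in WT by Trav6-7-dv9 (9.06%), Trav3-3 (6.18%), Trav16 (5.84%), Trav14d-3-dv8 (5.67%), Trav7-5 (4.40%), Trav4-4-dv10 (3.56%) and Trav13-1 (2.96%). In CD27-/- these stood at 3.14%, 6.45%, 0.685%, 4.39%, 1.08%, 2.68% and 2.57%, so that Trav6-7-dv9, Trav16 and Trav7-5 were less used and the other 4 had intervals of the usage ratio that include 1. Across the 61 alpha members Pearson r between the libraries was 0.43, against 0.91 for beta.

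Trav5-4 led the CD27-/- library. It held 29 UMIs in 26 WT cells, 2.20% (1.44 to 3.21), and 378 UMIs in 306 CD27-/- cells, 17.5% (15.7 to 19.3), which is a usage ratio of 7.93 (5.31 to 12.3). The level went from 1.83 to 19.1 CPM. No single cell carried the signal: the most UMIs in 1 CD27-/- cell were 4, and 243 of the 306 cells had 1. Among the 54 of these cells with a beta segment, 18 different beta segments occurred, led by Trbv2 in 8 cells and Trbv1 in 7. Most of the 306 cells had no beta segment read. In WT only 3 of the 26 Trav5-4 cells had one, so the partners cannot be compared between the libraries. Whether the Trav5-4 cells belong to few or many clones was not tested.

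The other segments with at least 100 UMIs that were 1.5-fold higher in CD27-/- were Trav7-3, Trav5-1, Trav16d-dv11, Trav6n-6 and Trav13-2. Trav7-3 went from 9 to 104 UMIs, or 0.762% to 4.28% of cells. Trav5-1 went from 11 to 95 UMIs, or 0.762% to 3.94%. Trav16d-dv11 went from 14 to 104 UMIs, or 1.02% to 3.99%. Trav6n-6 went from 31 to 121 UMIs, or 2.29% to 5.88%, and Trav13-2 from 36 to 72 UMIs, or 2.20% to 2.97%. These 5 and Trav5-4 include symbols of different families and copies. Lower in CD27-/- were Trav16, from 94 to 12 UMIs and from 69 to 12 cells, and Trav6-7-dv9, from 118 to 56 UMIs and from 107 to 55 cells.

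By this rule 6 of the 13 alpha members with at least 100 UMIs were higher and 2 were lower, while 7.02% of all genes tested were higher and 2.86% lower. For beta, 1 of 10 was higher (Trbv2) and 1 lower (Trbv26). The median log2 ratio was 0.45 over those alpha members and −0.28 over those beta members. With the limit at 10 UMIs all members entered: 25 of 61 alpha members were higher and 20 lower, and 2 of 21 beta members were higher and 5 lower, where 12.2% of the 13212 genes at that limit were higher and 7.85% lower. When UMIs were scaled to the chain in place of the library, 5 alpha members with at least 100 UMIs were higher and 4 lower. Among alpha symbols under 100 UMIs, singled out after their values were seen, Trav9n-4 held 15 UMIs in WT and 0 in CD27-/-, Trav13d-1 held 23 and 1, and Trav13n-4 held 6 and 83. The first 2 passed the limit of 10 UMIs only through WT, and Trav13n-4 only through CD27-/-. The limit of 100 UMIs likewise sums both libraries. All 6 higher alpha members held under 100 UMIs in WT, such as Trav7-3 with 9 against 104 in CD27-/-. Both lower ones held under 100 in CD27-/-. The counts and medians above carry this selection, as do the shares over all genes.

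**Figure D3:**
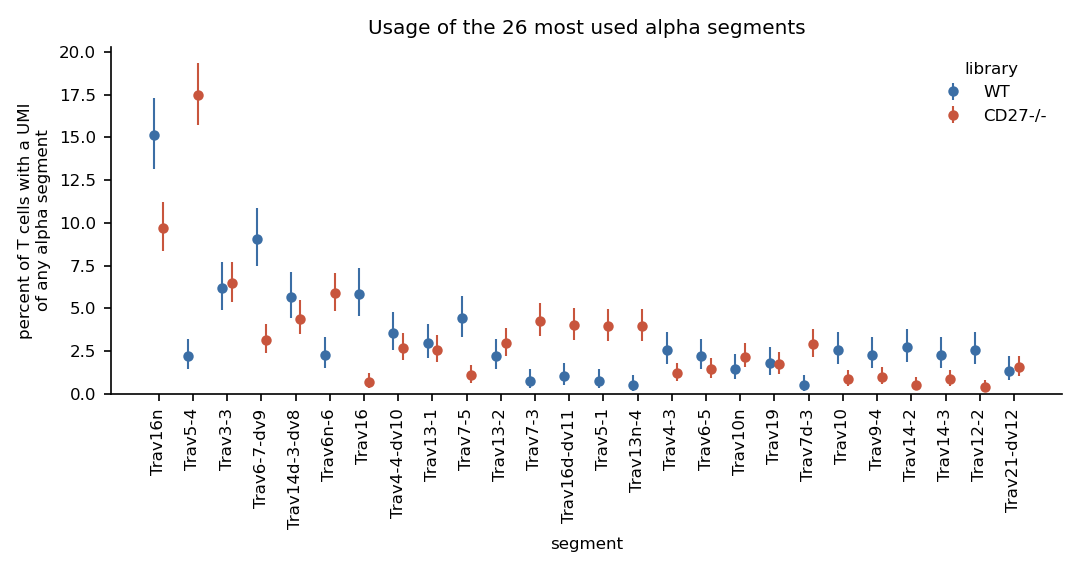
Usage of the 26 most used alpha segments in percent of T cells with a UMI of any alpha segment, for the WT (blue) and CD27-/- (red) library; bars are exact 95% intervals for counting error. Trav5-4 (2.20% and 17.5%), Trav16 (5.84% and 0.685%) and Trav6-7-dv9 (9.06% and 3.14%) are far apart, whereas Trav3-3 (6.18% and 6.45%) is level.

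With near copies summed into families, fewer were apart. The 3 Trav16 segments together were seen in 21.7% (19.4 to 24.1) of WT and 12.6% (11.1 to 14.3) of CD27-/- alpha-positive cells, although Trav16d-dv11 was higher. The Trav5 family went from 2.96% (2.07 to 4.10) to 21.3% (19.4 to 23.3) and the Trav7 family went from 10.2% (8.57 to 12.1) to 14.7% (13.1 to 16.5). The Trav12 family went from 4.91% (3.75 to 6.30) to 1.48% (0.972 to 2.17), and the Trav9 family from 6.77% (5.41 to 8.36) to 3.25% (2.47 to 4.20). Trav6 was level at 17.1% and 16.0%, though its CPM ratio was 1.31, so its direction depends on the scale. Of 12 alpha families with at least 100 UMIs, 2 were 1.5-fold higher by CPM (Trav5 and Trav7) and 2 lower (Trav12 and Trav9). Of single genes at that limit, 7.02% were higher and 2.86% lower, and no such share was computed for usage. By usage only Trav5 was 1.5-fold higher, and 4 were lower: Trav12, Trav9, Trav16 and Trav14, the last at 13.3% and 7.93%. Pearson r over the 18 families was 0.61 for alpha and 0.93 for beta.

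Alpha usage changed with position along the locus, which spans 1550 kb of mm10 chromosome 14 (52427928 to 53977678), with the joining segments and Trac beyond its last variable segment. Stretches of 500 kb from the first segment were chosen after the values were seen. Reads of both libraries were assigned to mm10 segments, and whether both pools carry the same haplotype of this locus was not tested; a different one would change which near copy a read is assigned to. Segments of the first 500 kb, farthest from the joining segments, were seen in 7.96% (6.48 to 9.65) of WT and 21.1% (19.2 to 23.1) of CD27-/- alpha-positive cells, a ratio of 2.65 (2.11 to 3.36). Of the 15 members there, 13 were 1.5-fold higher in CD27-/- by CPM and 1, Trav13d-1, was lower. These counts use the limit of 10 UMIs, where 12.2% of genes were higher and 7.85% lower. They include thinly counted symbols such as Trav2 (6 and 13 UMIs) and Trav9d-1 (0 and 10). Such symbols passed the limit only through CD27-/-, and some beyond 1000 kb, such as Trav17 (17 and 3), only through WT. The counts of members higher and lower in all 3 stretches carry this selection. The next 500 kb had 31.9% and 33.5% of cells, with 8 of 14 members higher and 1 lower. Beyond 1000 kb the share was 66.1% (63.4 to 68.8) in WT and 53.8% (51.5 to 56.2) in CD27-/-, and 18 of 32 members were lower and 4 higher. Trav5-4 and Trav7-3 belong to those 4. Without Trav5-4, members beyond 1000 kb were seen in 64.4% and 38.8% of all alpha-positive cells. That base still holds the cells positive only through Trav5-4, which lowers the CD27-/- share more than the WT share. By CPM, which has no such base, the ratio of members beyond 1000 kb was 0.958 (0.882 to 1.04). Without Trav5-4 it was 0.685 (0.625 to 0.751). Across the 61 members Spearman rho between distance and the log2 CPM ratio was −0.60. It is a description over segments that share 2 libraries, and it carries the same selection.

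**Figure D4:**
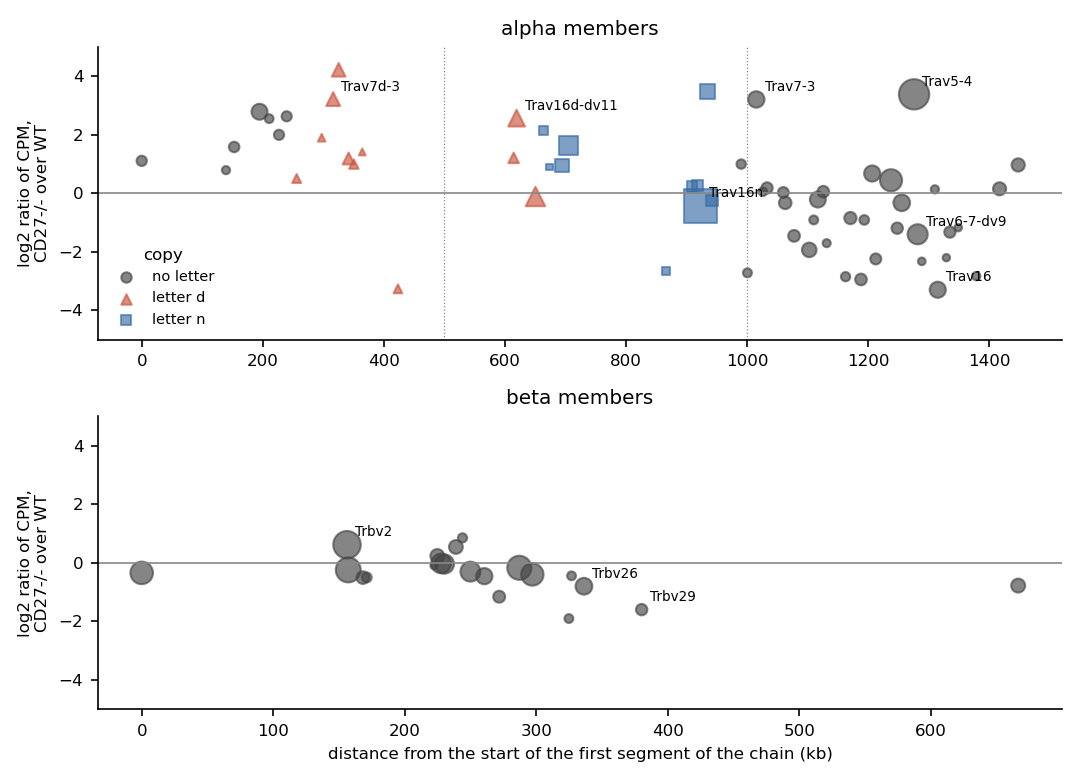
Log2 ratio of CPM, CD27-/- over WT, of every member against its distance in kb from the first segment of its chain (counts under 3 set to 3; area grows with UMIs; shape, letter of the copy; dotted lines, 500 and 1000 kb). Alpha members of the first 500 kb lie mostly above 0 and those beyond 1000 kb mostly below, with Trav5-4 and Trav7-3 as exceptions. Of the 21 beta members, 2 were 1.5-fold higher and 5 lower, the lowest being Trbv23 (−1.91), Trbv29 (−1.60) and Trbv17 (−1.16).

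The higher share of the first 500 kb was seen in all 4 marker sets described further on. In Foxp3-positive cells the first 500 kb went from 8.99% to 22.2%, in Il1rl1-positive cells from 5.77% to 25.3%, in Ccl5-positive cells from 9.89% to 20.2% and in Ccr7-positive cells from 5.88% to 23.9%. Among the 10 clusters with at least 20 alpha-positive cells in both libraries, that share was higher in CD27-/- in 10, and the share beyond 1000 kb was lower in 9, the exception being the cluster led by Cxcl2, Areg and Il10 (63.6% and 69.6%). In several clusters the intervals of both libraries overlap, and clusters were built without receptor genes. Genes other than receptor segments within 2 Mb of the alpha locus gave 58 with at least 100 UMIs, of which 3 (5.17%, against 7.02% of all genes) were 1.5-fold higher and 5 (8.62%, against 2.86%) lower in CD27-/-. Their median log2 ratio was 0.10. Beside the beta locus 1 of 17 was higher and 0 lower.

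The 4 marker sets of T cells were taken by 1 UMI of a gene. Foxp3 is the transcription factor of regulatory T cells, Il1rl1 encodes the interleukin-33 receptor ST2, Ccl5 is a chemokine of effector and memory cells, and Ccr7 a homing receptor of naive and recirculating cells. The sets held 608 and 317 cells for Foxp3, 1330 and 1894 for Il1rl1, 2577 and 3453 for Ccl5, and 843 and 281 for Ccr7, in WT and CD27-/- respectively. They overlap: 64.5% of WT and 50.2% of CD27-/- Foxp3-positive cells were also Il1rl1-positive, and 32.3% and 26.3% of T cells had none of the 4 markers. Positive cells were deeper (a median of 3308 against 1882 UMIs for Foxp3 in WT), and their share with an alpha segment was higher for that set (29.3% against 17.9%). Usage, as a share within alpha- or beta-positive cells, is set beside that in cells of the same library without the marker.

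The high use of Trav5-4 in CD27-/- was common to all 4 sets. It was 24.1% (16.4 to 33.2) of Foxp3-positive, 16.3% (13.4 to 19.6) of Il1rl1-positive, 17.4% (15.1 to 19.9) of Ccl5-positive and 16.9% (9.05 to 27.7) of Ccr7-positive cells. In WT it was 1.69%, 2.36%, 1.28% and 1.31%, with no interval above 4.85%. Trav5-4 was also higher in CD27-/- in 10 of 10 clusters. It was not seen among 17 alpha-positive CD27-/- cells of a further, smaller cluster led by Spry2, Klra1 and Fcer1g, which allows up to 19.5%. Trav6-7-dv9 was lower in CD27-/- in the same 10 of 10 clusters and in all 4 sets, for example 9.71% against 3.60% of Ccl5-positive cells. In Ccr7-positive cells the interval of its usage ratio, 0.359 (0.0678 to 1.23), includes 1. In the smaller cluster it had 0 of 25 WT and 2 of 17 CD27-/- cells.

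**Figure D5:**
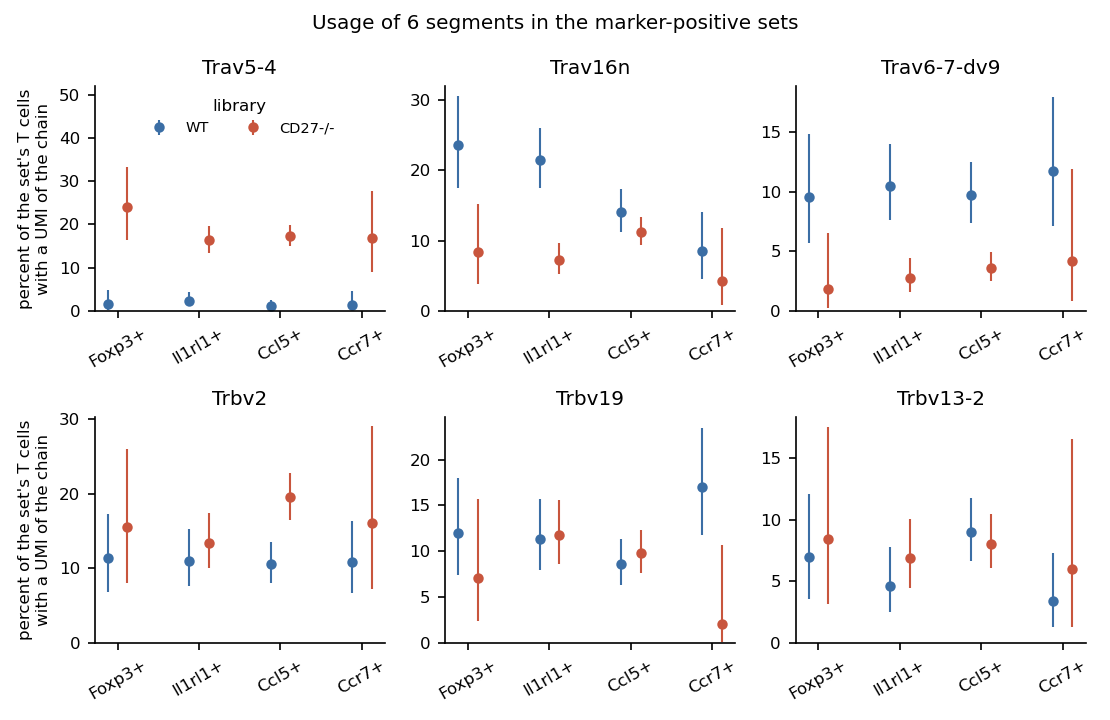
Usage of 6 segments in percent of the alpha- or beta-positive T cells of each marker-positive set, for the WT (blue) and CD27-/- (red) library; bars are exact 95% intervals for counting error. Trav5-4 is high in all CD27-/- sets (16.3% to 24.1%), and Trav16n is high in the WT Foxp3-positive and Il1rl1-positive sets (23.6% and 21.5%) against 14.1% and 8.50% in the other WT sets.

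In Foxp3-positive WT cells, only Trav16n and Trbv3 had an expected count of 20 or more, and neither was 1.5-fold apart by CPM from Foxp3-negative cells, where 11.4% of genes were. Trav16n was seen in 42 of 178 alpha-positive Foxp3-positive cells, 23.6% (17.6 to 30.5), and in 13.7% (11.6 to 15.9) of the others, a usage ratio of 1.73 (1.19 to 2.46). Taken as a share of alpha UMIs, the ratio was 1.285 (0.939 to 1.735), which includes 1. Trbv3 had 11.3% and 11.1%. In CD27-/- the members tested were Trav16n and Trav5-4. Trav16n was lower by CPM (0 of 2 higher and 1 of 2 lower, with 7.09% of genes apart in either direction), though by usage it had 9 of 108 cells, 8.33% (3.88 to 15.2), against 9.79% (8.40 to 11.3). Trav5-4 had 24.1% against 17.0%, with a ratio of 1.41 (0.907 to 2.12).

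In Il1rl1-positive WT cells, 2 of 6 alpha members tested were higher and 1 lower, and of 9 beta members 0 were higher and 1 lower, against 15.8% of genes apart. Trav16n had 82 of 381 cells, 21.5% (17.5 to 25.99), against 12.1% (9.94 to 14.6) of Il1rl1-negative cells. Trav3-3 had 7.61% against 5.50% and Trbv1 12.8% against 7.69%. Trav14d-3-dv8 had 2.62% against 7.12%, and Trbv13-2 4.61% against 6.90%. The usage ratios of Trav3-3, 1.38 (0.835 to 2.26), and Trbv13-2, 0.668 (0.334 to 1.245), have intervals that include 1. In CD27-/- 2 of 15 alpha members were higher and 4 lower, and of 8 beta members 0 were higher and 4 lower, with 12.1% of genes apart. The median log2 CPM ratio of those beta members was −0.52, and by usage Trbv12-2 (7.43% against 8.26%) and Trbv13-2 (6.86% against 7.72%), called lower by CPM, were near level. There Trav16n was less used in Il1rl1-positive cells, 42 of 576 cells, 7.29% (5.31 to 9.73), against 10.9% (9.16 to 12.8). Trav6d-4 (3.65% against 1.62%), Trav16d-dv11 (5.73% against 3.15%) and Trbv3 (15.7% against 9.05%) were more used. Trbv15 (2.86% against 7.32%) was less used. Trav13-2 had 2.26% against 3.32%, with a usage ratio of 0.681 (0.333 to 1.30) that includes 1. The Il1rl1-positive sets differ in make-up: the cluster led by Cxcl2, Areg and Il10 held 48.4% of them in WT and 3.59% in CD27-/-. Outside that cluster, an alternative chosen after seeing the data, Trav16n had 11.8% of WT Il1rl1-positive and 11.1% of negative cells, a ratio of 1.07 (0.642 to 1.71). Inside it, the WT shares were 31.7% and 38.7%, a ratio of 0.819 (0.436 to 1.675). Both intervals include 1, and the cause of the WT difference over all cells was not tested. In CD27-/- the shares outside that cluster were 7.32% and 10.9%.

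In Ccl5-positive WT cells, 0 of 9 alpha members were higher and 3 lower, and of 11 beta members 1 was higher and 1 lower, against 13.6% of genes apart. The higher one was Trbv13-2, with 46 of 513 cells, 8.97% (6.64 to 11.8), against 3.63% (2.20 to 5.62). Trav4-4-dv10 (2.20% against 4.72%) and Trav14d-3-dv8 (4.03% against 7.09%) were lower, as were Trav12-2 and Trbv1 by CPM, though the usage ratio of Trbv1, 0.789 (0.511 to 1.21), includes 1. Trav13-1 (3.66% against 2.36%), Trav3-3 (7.51% against 5.04%) and Trbv19 (8.58% against 12.2%) were not called, and their usage ratio intervals include 1. In CD27-/- 4 of 19 alpha members were higher and 5 lower, and of 12 beta members 2 were higher and 0 lower, with 11.5% of genes apart. Trav19 had 2.40% against 0.798%, Trbv13-3 5.42% against 2.64% and Trav13-2 3.70% against 1.99%. Trav21-dv12 had 0.900% against 2.39%, Trav6d-4 1.70% against 3.06% and Trav7d-3 2.30% against 3.72%. The usage ratio intervals of Trav13-2 (0.994 to 3.64), Trav6d-4 (0.279 to 1.09) and Trav7d-3 (0.340 to 1.11) include 1. Trbv2, named here after its values were seen, had 19.5% (16.5 to 22.8) of Ccl5-positive and 13.4% (10.4 to 16.9) of Ccl5-negative CD27-/- cells, and 10.5% and 10.3% in WT.

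In Ccr7-positive WT cells Trav16n was the alpha member tested and was lower (1 of 1, against 14.7% of genes apart), with 13 of 153 cells, 8.50% (4.60 to 14.1), against 16.2% (13.9 to 18.5). Trbv3, the beta member tested, had 10.8% against 11.2%. In CD27-/- no member reached the expected count, where 18.9% of genes were apart. Trbv19, named after its values were seen, had 30 of 176 Ccr7-positive WT cells, 17.0% (11.8 to 23.4), and 1 of 50 Ccr7-positive CD27-/- cells, 2% (0.0506 to 10.7). Over all T cells Trbv19 was level at 10.4% and 10.7%.

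Within WT, Trav16n was concentrated in 1 cluster, led by Cxcl2, Areg and Il10. It was seen in 71 of its 217 alpha-positive cells, 32.7% (26.5 to 39.4), and in 11.2% (9.28 to 13.4) of the other WT T cells. In CD27-/- the same cluster had 2 of 23 cells, 8.70% (1.07 to 28.0). That cluster held 806 WT and 114 CD27-/- T cells. In the cluster led by Foxp3, Ikzf2 and Ctla4, Trav16n had 16.2% (10.9 to 22.6) in WT and 18.1% (10.9 to 27.4) in CD27-/-.

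Pairs could be read in cells with exactly 1 alpha and 1 beta segment, 190 in WT and 258 in CD27-/-. The WT cells held 146 different pairs, 120 of them seen once, and the CD27-/- cells 187, 141 of them seen once. The most frequent WT pair was Trav16n with Trbv17 in 8 cells, where the product of the segments' shares gives 1.91. Of these 8 cells, 6 lay in the cluster led by Cxcl2, Areg and Il10, 5 were Il1rl1-positive and 2 Foxp3-positive, and 0 CD27-/- cells held the pair. Next came Trav14d-3-dv8 with Trbv15, Trav16 with Trbv1 and Trav6-7-dv9 with Trbv1 in 4 cells each, and Trav13-1 with Trbv2 in 3. In CD27-/- Trav5-4 with Trbv1 and Trav5-4 with Trbv2 had 6 cells each, where the products give 2.87 and 5.31. Trav7-3 with Trbv2 had 5 cells, and Trav16d-dv11 with Trbv3 and Trav5-1 with Trbv2 had 4 each, as did Trav5-4 with Trbv19 and with Trbv3. A pair of segments is not a clone, since the junction was not read and joining segments were read in few cells.

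A T cell can carry a second rearranged alpha chain but seldom a second beta chain. Among alpha-positive cells, 11.9% in WT and 14.5% in CD27-/- held more than 1 alpha member. Among beta-positive cells, 5.21% and 6.36% held more than 1 beta member. Of cells with exactly 2 alpha members, both were of the same family in 5 of 120 WT cells (4.17%) and 51 of 222 CD27-/- cells (23.0%). Trav16d-dv11 with Trav16n made up 22 of the latter, and these symbols differ at 3 of 301 compared positions. The next, Trav3-3 with Trav5-4 in 12 cells, joins different families. In WT Trav16n with Trav4-4-dv10 was first, in 6 cells. Whether reads of 1 molecule were split between near copies was not tested.

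Segments of invariant T cells could be read only in part. Trav11, used with Traj18 by invariant natural killer T cells, held 1 UMI in each library, in cells of the cluster led by Spry2, Klra1 and Fcer1g, and as it has almost no unique window this count does not limit its use. Traj18 itself was seen in 5 WT and 8 CD27-/- cells, 0 of them in that cluster. Trav1, used by mucosal-associated invariant T cells, was seen in 9 WT and 22 CD27-/- cells. Traj33, its usual partner, held 0 UMIs in both libraries, but all 60 joining segments together held only 44 WT and 62 CD27-/- UMIs. In these data 0 of the Trav1 cells had a UMI of Zbtb16, the transcription factor of both lineages. As Zbtb16 was seen in only 19 WT and 13 CD27-/- T cells in all, this says little of what the Trav1 cells are. Among the Trav1 cells with a beta segment, 0 of 3 in WT had a Trbv13 segment, 1 of 7 in CD27-/- had Trbv13-1 and 1 had Trbv13-3, and 0 had Trbv19.

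Beta usage in the cluster led by Spry2, Klra1 and Fcer1g was unlike that of the other T cells, and is described after its values were seen. Trbv29 was seen in 7 of 43 WT cells, 16.3% (6.81 to 30.7), and in 2.62% of other WT T cells, and in 3 of 20 CD27-/- cells, 15% (3.21 to 37.9), and 1.02% of the others. Trbv13-2 was seen in 9 of the 43 WT cells, 20.9% (10.0 to 36.0), against 5.64%, and in 4 of the 20 CD27-/- cells, 20% (5.73 to 43.7), against 7.22%; in CD27-/- the interval of that ratio, 0.737 to 7.39, includes 1. Trbv13-1 was seen in 3 of the 43 WT cells and 0 of the 20 CD27-/- cells, Trbv13-3 in 0 and 3, Trbv1 in 3 and 2, and Trbv19 in 1 and 0, with ratio intervals that all include 1. Trbv13, Trbv29 and Trbv1 encode beta chains that invariant natural killer T cells use in mice. Klrb1c, the NK1.1 antigen gene, was seen in 20.3% of this cluster's WT cells and 7.35% of its CD27-/- cells, against 0.492% and 0.301% of other T cells. Zbtb16 was seen in 1.94% and 4.41% of the cluster's cells, 6 in each library, against 0.221% and 0.105% of other T cells. The cluster is called by its leading genes here. It held 310 WT and 136 CD27-/- T cells.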

How the data were processed

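The 2 libraries were used, 1 per group, with groups taken from the sample titles. Per the file headers, the authors counted UMIs with Cell Ranger 6.1.1, and per the submitters' processing notes the build was mm10; the deposited values are raw UMI counts per gene and cell. The labels name 2 kit versions, the series text also mentions a CD70 transgenic cross that is not analysed here, and whether 10 mice went into each pool is unclear.

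From these counts, barcodes under 500 genes or above 10% mitochondrial UMIs were dropped (60 WT and 40 CD27-/-). Cells were scaled to 10000, log-transformed and clustered jointly (scanpy 1.11.5; 2000 variable genes, without Cd27 and without receptor, immunoglobulin, sex-linked, haemoglobin, mitochondrial or ribosomal genes, 30 components, 20 neighbours, Leiden resolution 1), with no doublet caller. Clusters with at least 2 UMIs per cell of a non-T marker list, a limit set after seeing the data, were left out (136 WT and 65 CD27-/- cells). Intervals are Clopper-Pearson for shares and conditional Poisson for ratios (scipy 1.17.1), at 95%.

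A gene was called apart at a CPM ratio of 1.5 among genes with at least 100 UMIs over both libraries, or, for marker sets, with an expected count of at least 20 in the positive cells. Segments were matched by gene ID to GENCODE vM21, all 163 of 163. The members and lists were chosen with earlier results of these data known. Named with values are the 8 most used WT segments of each chain, up to 5 furthest each way between libraries per chain by CPM, up to 3 furthest each way by usage ratio per marker set and library, the invariant segments, the symbols around the 10 UMI limit and the 5 most frequent pairs of each library; others are marked as named after their values were seen. Recombination signals were not analysed here. Alternatives were other units of usage, UMI limits, cell filters, scalings, folds and thinning.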

Additional observations from a re-analysis of the deposited data

How the results depend on the processing

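The counts of segments apart between the libraries depended on the UMI limit, the fold and the scaling. With a limit of 10 UMIs in place of 100, 25 alpha members were higher and 20 lower in CD27-/-, and 2 beta members were higher and 5 lower. At 2-fold, 0 beta members were higher and 0 lower. Scaled to the UMIs of the chain, 4 alpha members were lower in place of 2, and summed over families, an alternative chosen after seeing the data, 2 alpha families were higher where 6 members had been. Thinned to 1300 UMIs, the percent of T cells with an alpha segment was 11.3 in WT and 14.9 in CD27-/-, and with a beta segment 9.25 and 7.97. Of 143 usage ratios recomputed for 24 segments, CD27-/- over WT, 127 stayed within their counting interval and 16 moved beyond it, 13 of these when at least 2 UMIs of a segment were required. In the marker sets 85 of 89 stayed within theirs, the exceptions including Trav16n in WT Il1rl1-positive cells, at 1.07 without the cluster led by Cxcl2, Areg and Il10 where all cells gave 1.78. The cause of these shifts was not tested. No paired analysis was possible because each group is 1 library. Depth limits what can be said: most cells with a segment hold 1 UMI of it, near copies share reads, and neither the junction nor the clone was read.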
